A study of Arundinella anomala and Arundinella fluviatilis and Arundinella hirta with 8 samples.

Results

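Leaf transcripts of 3 genes that encode CO2-releasing enzymes of C4 leaves were followed across 8 grass species: the C4 NADP-malic enzyme (GRMZM2G085019), a plastid NADP-malic enzyme that is not the C4 form (GRMZM2G122479) and PEP carboxykinase (GRMZM2G001696). They were selected by their maize gene identifiers, not by a cut on their values, though earlier results of these data were known. They made up 3 of 26274 genes and 7 of 36698 protein model lines in the table. Whole mature leaves of wild-type plants were sampled from the third leaf, and each species was represented by 1 library. Of the species, 5 were *Arundinella* (*A. pubescens*, *A. nepalensis*, *A. hirta*, *A. fluviatilis* and *A. anomala*) and 3 came from other genera (*Imperata cylindrica*, *Capillipedium parviflorum* and *Bothriochloa ischaemum*). All plants shared one growth regime, with 16 h of light, 8 h of darkness and 22 °C. The labels give no second plant, line or harvest for any species, so a difference between 2 species has no replicate check.

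In C4 photosynthesis, carbon is first fixed into 4-carbon acids in the mesophyll, and a decarboxylase then releases CO2 next to Rubisco in the bundle sheath. NADP-malic enzyme acts on malate in the chloroplast and yields pyruvate and NADPH, whereas PEP carboxykinase acts on oxaloacetate, commonly derived from aspartate, in the cytosol and yields PEP. Leaves of *Arundinella* also carry distinctive cells, which lie away from the veins and share features with bundle sheath cells. The plastid NADP-malic enzyme outside the C4 cycle is a close relative of the C4 form in maize, and fragments of close relatives can be divided between them by estimate.

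Levels are given as FPKM, in which fragments are divided by library size and sequence length, so that genes can be compared per length. The libraries listed between 8142 and 20607 genes above 0, with more than 15000 in *A. anomala*, *A. fluviatilis*, *A. nepalensis* and *A. pubescens* and fewer in the other 4. The FPKM values summed to between 212357 in *C. parviflorum* and 829005 in *A. pubescens*. Sequencing depth is unknown, and a value of 0 is reported as listed at 0 because it need not mean that a transcript was missing. In bulk leaf RNA, fewer cells that express a gene and less transcript per cell cannot be told apart. The Rubisco small subunit (GRMZM2G113033), used as a check that the libraries hold leaf RNA, was at 1380 FPKM or more in 7 libraries and at 35.75 FPKM in *I. cylindrica*. This gene thus gives no such check for *I. cylindrica*, and the cause of its low value was not tested.

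The non-C4 plastid NADP-malic enzyme was the one member above 0 in all 8 libraries, which was true of 8.44% of the 18780 genes tested. *A. fluviatilis* and *A. anomala* were at 2280 and 915 FPKM. Next came *C. parviflorum* at 72.1, *I. cylindrica* at 64.07, *A. nepalensis* at 57.29 and *A. hirta* at 55.87 FPKM, then *A. pubescens* at 21.34 and *B. ischaemum* at 8.27. A pair of *Arundinella* libraries thus stood more than an order of magnitude above the other 6, while the remaining 3 *Arundinella* values lay within the range of the other genera. The gene ranked 24th of 20388 listed genes in *A. fluviatilis* and 69th of 20468 in *A. anomala*. At levels of 55.87 to 72.1 FPKM it still stood within the top 4.67% of listed genes in *C. parviflorum*, 6.40% in *I. cylindrica* and 8.67% in *A. hirta*. In *A. nepalensis* a similar level of 57.29 FPKM placed it within the top 14.2%.

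The C4 NADP-malic enzyme, the main bundle sheath decarboxylase of maize, was among the most abundant transcripts in 4 libraries and at 7.97 FPKM or less in the other 4. *I. cylindrica* had the highest level, 4049 FPKM, and the libraries of *A. pubescens*, *A. anomala* and *A. fluviatilis* were at 1695, 1985 and 3043 FPKM. *B. ischaemum* was at 7.97 FPKM and *A. nepalensis* at 1.54, and the gene was listed at 0 in *C. parviflorum* and *A. hirta*. No library fell between the 2 sets of values. It ranked 13th among listed genes in *I. cylindrica*, 50th in *A. pubescens*, 24th in *A. anomala* and 15th in *A. fluviatilis*, whereas it was 3374th of 9681 genes in *B. ischaemum* and 15708th of 18023 in *A. nepalensis*. The library of *I. cylindrica* gave this gene 1.16% of its whole FPKM sum, against 0.204% for *A. pubescens*, 0.248% for *A. anomala* and 0.374% for *A. fluviatilis*. The sum of *I. cylindrica* was 349576 FPKM, against 801499 or more in each of those, so the shares lay further apart than the FPKM values.

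PEP carboxykinase showed a split of the same kind over a different set of libraries. The libraries of *A. hirta*, *A. anomala* and *A. fluviatilis* held 2494, 2772 and 3160 FPKM of it. *A. pubescens* was at 1.25 FPKM and *A. nepalensis* at 1.42, and the gene was listed at 0 outside *Arundinella*. Its rank was 9th in *A. hirta*, 15th in *A. anomala* and 13th in *A. fluviatilis*, against 18301st of 20607 in *A. pubescens* and 15879th of 18023 in *A. nepalensis*. In *A. hirta*, which listed about as few genes as the other genera, it took 0.781% of the FPKM sum, more than the 0.346% of *A. anomala* and the 0.389% of *A. fluviatilis*. The sum of *A. hirta* was 319415 FPKM, against 801499 and 813219 in *A. anomala* and *A. fluviatilis*, and its FPKM for the gene was the lowest of these. With 1 library per species, neighbouring values in these orders, such as those of *A. fluviatilis* and *A. anomala*, have no spread against which they could be separated.

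**Figure D1:**
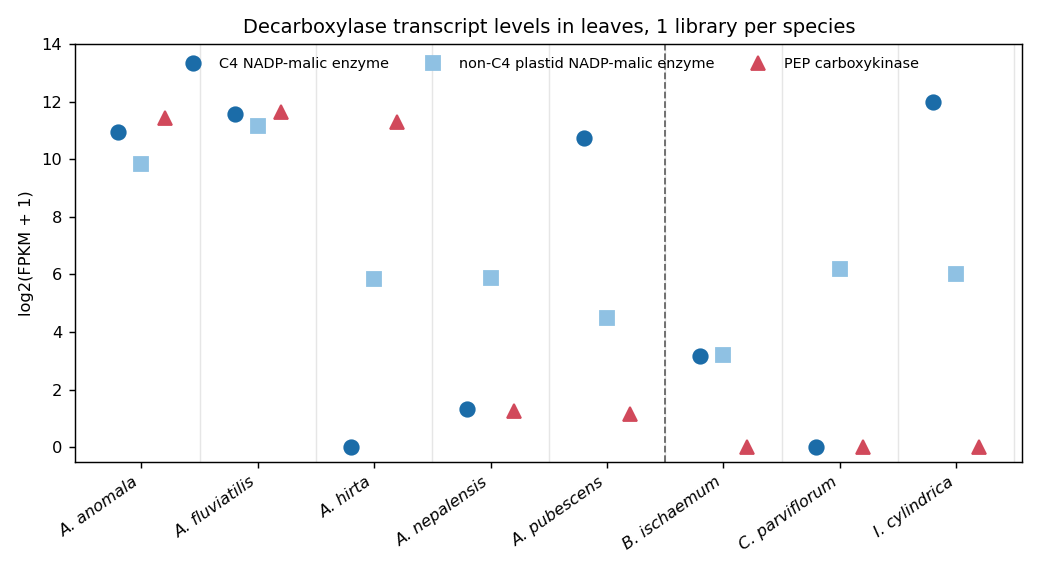
Levels of the 3 decarboxylase genes on a log2(FPKM + 1) scale in each of the 8 libraries, 1 point per gene and library, with *Arundinella* left of the dashed line. The C4 NADP-malic enzyme is high in 4 libraries, PEP carboxykinase in 3, both in *A. anomala* and *A. fluviatilis*, and the non-C4 plastid form is above 0 in all 8.

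The table splits these genes into protein models, the alternative predicted products of a maize gene. The split of fragments between models of the same gene is an estimate, so a change of leading line need not be a change of product. The C4 NADP-malic enzyme had 2 lines, and a different one led in different species. In *A. fluviatilis* model P01 was at 2276.04 FPKM and P02 at 766.85, while *A. anomala* had 172.41 FPKM on P01 and 1813.08 on P02. P02 therefore held 91.3% of the gene's FPKM in *A. anomala* but 25.2% in *A. fluviatilis*, and it was listed at 0 in *A. pubescens*, *B. ischaemum* and *I. cylindrica*, where P01 held all of it. The low value of *A. nepalensis* was all on P02. Both lines were above 0 in the *A. anomala* and *A. fluviatilis* libraries alone.

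The non-C4 plastid form had 4 lines, of 5 models in the deposited cross-reference of maize identifiers. Model P04 was above 0 in all 8 libraries and carried the 2 high values, 2276.5 FPKM in *A. fluviatilis* and 914.58 in *A. anomala*. Elsewhere P04 lay between 3.48 FPKM in *A. nepalensis* and 22.63 in *I. cylindrica*. Model P02 led in *C. parviflorum* at 68.11 FPKM, in *A. nepalensis* at 53.47 and in *A. hirta* at 48.32, with 94.5%, 93.3% and 86.5% of the gene. Model P03 was above 0 in *I. cylindrica* alone, at 41.44 FPKM or 64.7% of the gene, and P01 in *A. nepalensis* alone, at 0.34 FPKM. On the P04 line alone, *C. parviflorum*, *A. hirta* and *A. nepalensis* were at 3.99, 7.55 and 3.48 FPKM, so their standing as the middle of the range came from P02. PEP carboxykinase had 1 line, P02, of 2 models in the cross-reference, and its gene value is that line.

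**Figure D2:**
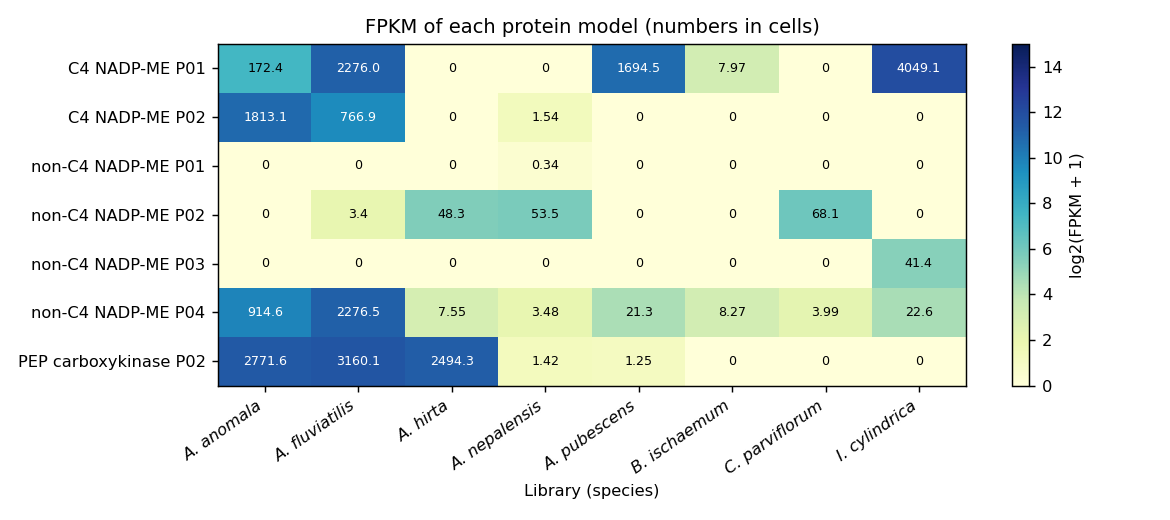
FPKM of the 7 protein model lines, with lines in rows, the 8 libraries in columns, the FPKM printed in each cell and colour giving log2(FPKM + 1). The leading C4 NADP-malic enzyme line is P02 in *A. anomala* and P01 in *A. fluviatilis*, *A. pubescens* and *I. cylindrica*, and the high values of the non-C4 form lie on P04.

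Expressed as shares of the summed FPKM of the 3 genes, the libraries differed both in the leading enzyme and in the amount behind the share. In *A. pubescens* and *I. cylindrica* the C4 NADP-malic enzyme made up 98.7% of 1717 FPKM and 98.4% of 4113 FPKM. In *A. hirta* PEP carboxykinase made up 97.8% of 2550 FPKM, and the remaining 2.19% was the non-C4 form. *A. anomala* and *A. fluviatilis* had no dominant enzyme. The sum of 5672 FPKM in *A. anomala* was divided into 48.9% PEP carboxykinase, 35.01% C4 NADP-malic enzyme and 16.1% non-C4 form. The sum of 8483 FPKM in *A. fluviatilis*, the highest of the 8, was divided into 37.3%, 35.9% and 26.9% in the same order.

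PEP carboxykinase was thus the largest single gene in 3 libraries, but with both NADP-malic enzyme genes added together these reached 51.1% in *A. anomala* and 62.7% in *A. fluviatilis*. In the other 3 libraries the non-C4 form was the largest, with 95.1% in *A. nepalensis*, 100% in *C. parviflorum* and 50.9% in *B. ischaemum*. The sums there were 60.25, 72.1 and 16.24 FPKM, so those shares divide a small amount. Treated as 1 gene, the sum of the 3 genes would have ranked 5th in *A. fluviatilis*, 6th in *A. anomala*, 9th in *A. hirta*, 13th in *I. cylindrica* and 50th in *A. pubescens*. It would have ranked 380th in *C. parviflorum*, 2168th in *B. ischaemum* and 2419th in *A. nepalensis*. Low sums occurred in *A. nepalensis*, which listed 18023 genes, as well as in the sparsely listed *B. ischaemum* and *C. parviflorum*, and *A. hirta*, with 10697 genes, had a high one. The part of the listing in these levels was not tested.

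**Figure D3:**
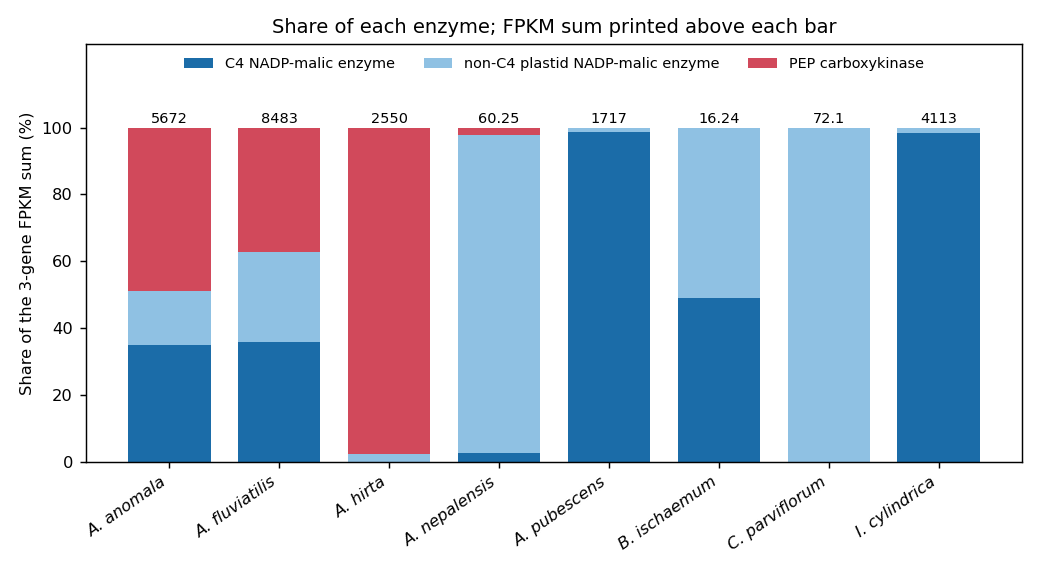
Share of each enzyme, in percent, in the summed FPKM of the 3 genes for the 8 libraries, with the sum in FPKM printed above each bar. The C4 NADP-malic enzyme fills almost the whole bar in *A. pubescens* and *I. cylindrica* and PEP carboxykinase in *A. hirta*, while the bars of *A. nepalensis*, *B. ischaemum* and *C. parviflorum* stand for sums of 72.1 FPKM or less.

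Within libraries, no pair of enzymes differed on average by more than the spread between species. The C4 form minus the non-C4 form came to 6.25 log2 units in *A. pubescens*, 5.96 in *I. cylindrica*, 1.12 in *A. anomala* and 0.42 in *A. fluviatilis*. It came to −0.05 in *B. ischaemum*, −4.52 in *A. nepalensis*, −5.83 in *A. hirta* and −6.19 in *C. parviflorum*. The mean difference on the log2(FPKM + 1) scale was −0.36 ± 4.89 (SD, n = 8), with the C4 form higher in 4 of 8 libraries (two-sided exact permutation by sign flips, p = 0.9766, also after adjustment over the 3 pairs). This mean was positive without *A. hirta* (0.43), *A. nepalensis* (0.24) or *C. parviflorum* (0.48). The non-C4 form exceeded PEP carboxykinase by a mean of 1.98 ± 4.11 (SD, n = 8), and it was higher in 5 of 8 libraries (exact permutation p = 0.2031, adjusted 0.6094). That mean was 0.08 over libraries with both genes above 0, 0.44 with a pseudocount of 10, 3.36 with a pseudocount of 0.1 and 3.04 without *A. hirta*. PEP carboxykinase was the higher of that pair in *A. anomala*, *A. fluviatilis* and *A. hirta*. The C4 form exceeded PEP carboxykinase by a mean of 1.62 ± 7.09 (SD, n = 8; exact permutation p = 0.4688, adjusted 0.7031). It was higher in 4 libraries, lower in 3 and equal in 1. The mean of this pair was 0.14 without *I. cylindrica*, 3.46 without *A. hirta* and 3.98 with both NADP-malic enzyme genes summed. With 8 libraries the smallest p this test can give is 0.0078 when no difference is 0. The smallest p is larger for the C4 form against PEP carboxykinase, as both were listed at 0 in *C. parviflorum*. Where 1 gene of a pair is listed at 0 the difference rests on the pseudocount of 1.

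The 5 *Arundinella* libraries were also set against the 3 of other genera, the one grouping in the labels with several libraries. None of the 3 members passed in limma's fit over all genes, where 1.83% of the 18780 genes tested did, and 1 member, PEP carboxykinase, had an unadjusted p under 0.05, as did 29.1% of the genes tested. The non-C4 form was at a median of 57.29 FPKM in *Arundinella*, with a range of 21.34 to 2280, and at a median of 64.07 in the other genera, with a range of 8.27 to 72.1, so the groups overlapped. Its fitted log2 difference was 2.29 ± 1.70 (SE; limma, adjusted p = 0.325), beside a median of 1.74 over all genes tested, and the value fell to 0.77 under quantile normalization, where the median over all genes was −0.16.

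PEP carboxykinase was above 0 in 5 of 5 *Arundinella* libraries and in 0 of 3 of the others, and was the 1 member whose groups did not overlap, as was the case with *Arundinella* higher for 12.7% of the genes tested. It met the filter on low values through *Arundinella* alone, and its adjusted p was 0.0956 (limma, unadjusted p = 0.0094). No fold change is given because the other libraries were listed at 0, and 2 of the 5 *Arundinella* values were under 2 FPKM. For the C4 form the groups overlapped, the log2 difference was 1.87 ± 3.05 (SE; limma, adjusted p = 0.649), and it changed sign to −0.65 without *C. parviflorum*. The extent of listing moved with genus: 4 of the 5 *Arundinella* libraries and none of the others listed more than 15000 genes, and 91.4% of genes were fitted higher in *Arundinella*. The extent of listing and the genus cannot be told apart in this comparison.

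The 12 other genes of the C4 pathway were named from general knowledge of maize, since the files pair identifiers with no names. In the comparison of genera 1 of the 12 passed higher in *Arundinella*, as did 1.78% of all genes tested, and 0 passed lower, as did 0.0426% (limma). Their median log2 difference was 3.23 against 1.74 for all genes tested. The sign was positive for 10 of the 12 and negative for 2, while 91.4% of the 18780 genes had a positive sign. The count of signs thus shows no lean of the pathway toward *Arundinella* beyond that background, while the median difference lay above that of all genes. Neither comparison was tested. The gene that passed was aspartate aminotransferase (GRMZM2G094712, adjusted p = 0.0477), which makes the aspartate from which PEP carboxykinase's substrate is commonly derived. It was between 94.32 and 195 FPKM in 4 *Arundinella* libraries, at 2.25 FPKM in *A. hirta* and listed at 0 in the other genera, so it met the filter on low values through *Arundinella* alone. Leaving out 1 library ended this call in each case except that of *A. hirta* (limma, adjusted p = 0.0783 to 0.154). It also ended without the filter (limma, adjusted p = 0.0652), with a pseudocount of 10 (0.181), under quantile normalization (0.109), under median-of-ratios scaling (0.0658) and with robust estimation (0.06).

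Across the 8 libraries the C4 NADP-malic enzyme varied most closely with the C4 PEP carboxylase (GRMZM2G083841), the enzyme of the first fixation step, among the 12 pathway genes, with a Pearson's r of 0.97 on the log2(FPKM + 1) scale. The same coefficient was 0.70 with alanine aminotransferase (GRMZM2G088064) and 0.19 with NADP-malate dehydrogenase (GRMZM2G129513), which makes the malate. PEP carboxykinase had its highest coefficient in that list with carbonic anhydrase 1 (GRMZM2G121878), at 0.66, and reached 0.47 with aspartate aminotransferase and 0.23 with the C4 PEP carboxylase. The non-C4 form had its highest with NADP-malate dehydrogenase, at 0.70. Among the 3 members the coefficient was 0.75 between the non-C4 form and PEP carboxykinase, 0.47 between both NADP-malic enzymes and 0.20 between the C4 form and PEP carboxykinase. All of these describe 8 points, some of them listed at 0. The non-C4 form was above 0 in 8 libraries, the C4 form in 6 and PEP carboxykinase in 5. The C4 form and the C4 PEP carboxylase were high in the same 4 libraries and low in the others. Their coefficient of 0.97 rests mainly on that split.

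Over all genes tested, the 2 whose pattern was most like the C4 NADP-malic enzyme were GRMZM2G438438 (r = 0.98) and GRMZM2G364145 (r = 0.98). GRMZM2G364145 was at 264 to 841 FPKM in the same 4 high libraries and at 0.22 or 0 in the others. For PEP carboxykinase they were GRMZM2G047954 (r = 0.996) and GRMZM2G089491 (r = 0.995). GRMZM2G047954 was at 1165 to 1507 FPKM in the 3 libraries with high PEP carboxykinase and listed at 0 in the other 5. For the non-C4 form they were GRMZM2G156748 (r = 0.93) and GRMZM2G410831 (r = 0.92). GRMZM2G156748 was at 87.01 FPKM in *A. anomala*, 138.9 in *A. fluviatilis* and 1.03 or 0 elsewhere. GRMZM2G410831 was at 7.36 FPKM or less in every library. All were picked as the highest among 18780 genes over 8 points, so high coefficients follow in part from that choice. The files give no names for these 6 genes.

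**Figure D4:**
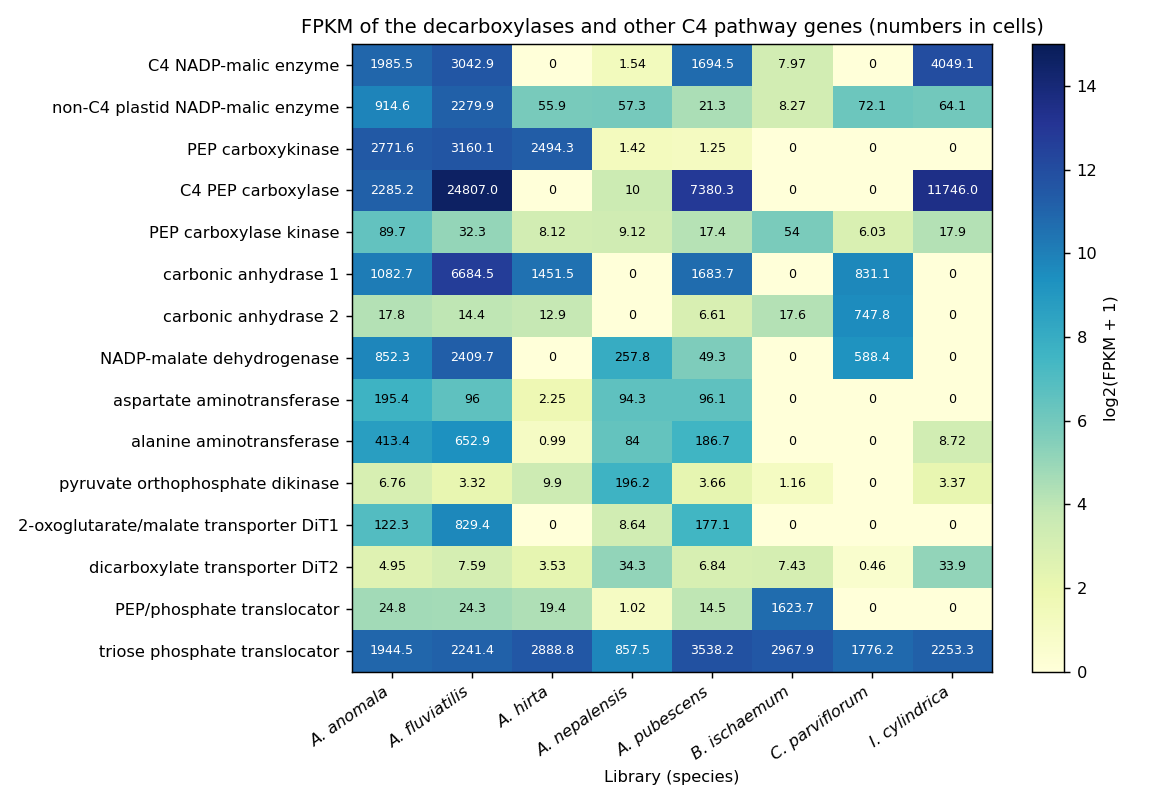
FPKM of the 3 decarboxylase genes and 12 other C4 pathway genes in rows, over the 8 libraries in columns, with the FPKM in each cell and colour giving log2(FPKM + 1). The C4 NADP-malic enzyme and the C4 PEP carboxylase are high in the same 4 libraries. PEP carboxykinase is high in *A. anomala*, *A. fluviatilis* and *A. hirta*, and in *A. hirta* the other 2 are listed at 0.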

How the data were processed

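RNA from the leaves of 8 grass species was sequenced after TruSeq library preparation, per the labels' protocols, with 1 library per species. The authors deposited FPKM values per maize protein model, made with RSEM per the submitters' processing notes; version, aligner and reference: not given in the sources used here. Since RSEM estimates how fragments are split among similar sequences, the NADP-malic enzyme genes can exchange values, as can models of the same gene. Depth is unknown, and no counting interval can be given.

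Columns were matched to species by name, and protein models were summed per gene. No 2 libraries held identical values. Ranks count genes above 0 in the same library. The filter kept genes that reached 1 FPKM in 3 or more libraries, all 3 members among them. They were fitted as log2(FPKM + 1) by limma (version 3.58.1, R 4.3.3; trend, two-sided, Benjamini-Hochberg adjustment at 0.05). The limma and sign-flip steps were run on simulated normal values, which lack the listed zeros of these data. Python 3.11.15, pandas 2.3.3, numpy 2.4.6 and matplotlib 3.10.9 did the rest. Species are the replicates, so a p-value reflects only how these libraries vary, and congeners share ancestry. The members and gene lists were chosen with earlier results of these data known. Genes named were the members, the 12 pathway genes, the Rubisco small subunit and, per member, the 2 genes of highest Pearson correlation. Enzyme names come from general knowledge of maize and could not be checked in the files. Alternatives were other pseudocounts, filters, scalings and limma settings, the highest protein model, summed NADP-malic enzymes and leaving out each library. Rescaling to equal sums, libraries with both genes above 0 and the 4 libraries listing more than 15000 genes were added after seeing the data.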

Additional observations from a re-analysis of the deposited data

How the results depend on the processing

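No call on the 3 decarboxylase genes changed under any alternative run. None passed between genera, with adjusted limma p-values from 0.0758 to 0.251 for PEP carboxykinase, 0.247 to 0.91 for the C4 NADP-malic enzyme and 0.246 to 0.88 for the non-C4 form. With at least 5 FPKM required in at least 4 libraries PEP carboxykinase was not tested. Leaving out 1 library gave log2 differences of −0.65 to 5.34 for the C4 form and 1.33 to 3.03 for the non-C4 form. The mean difference of the C4 from the non-C4 form within libraries turned positive with a pseudocount of 10 (0.59), over libraries with both genes above 0 (1.53) and over the 4 libraries listing more than 15000 genes (0.81), and it ran from −1.30 to 0.48 with 1 library left out; the cause was not tested. Shares moved by at most 6.36 percentage points when each gene took its highest protein model line.

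The number of genes passing between genera, 343, was unstable: 799 with a pseudocount of 0.1, 0 with a pseudocount of 10 (4517 at an unadjusted limma p under 0.05), 581 with the stricter filter, 20 under quantile normalization, 152 under median-of-ratios scaling and 621 without the trend. Leaving out 1 library gave 1 to 5847, namely 5847 without *A. hirta*, 629 without *I. cylindrica*, 90 without *A. pubescens*, 71 without *A. fluviatilis*, 22 without *C. parviflorum*, 3 without *B. ischaemum* and 1 without *A. anomala*; the cause was not tested. No pairing of *Arundinella* libraries with those of other genera was possible because replicates were numbered in accession order and no number is shared in the labels.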

Other observations

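The amount of decarboxylase transcript relative to the C4 PEP carboxylase differed between libraries that had both. The summed FPKM of the 3 decarboxylase genes was 0.233 times that of the C4 PEP carboxylase in *A. pubescens*, 0.342 times in *A. fluviatilis* and 0.35 times in *I. cylindrica*. In *A. anomala* the sum was 2.48 times as high as the carboxylase, at 5672 against 2285 FPKM. In *A. nepalensis* the ratio was 6.01, from 60.25 against 10.02 FPKM. Of that sum 57.29 FPKM was the non-C4 form, 1.54 the C4 form and 1.42 PEP carboxykinase. The ratio there thus came almost wholly from the enzyme outside the C4 cycle. The carboxylase was listed at 0 in the other 3 libraries, including *A. hirta*, where the decarboxylase sum was 2550 FPKM.

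In *A. fluviatilis* the leading lines of both NADP-malic enzyme genes had nearly the same level, 2276.04 FPKM for model P01 of the C4 form and 2276.5 FPKM for model P04 of the non-C4 form. They differed by 0.46 FPKM, and no further line of that library lay within 0.1% of the first. Whether these lines drew on the same fragments was not tested.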
